A study of Mus musculus with 2 samples.

Results

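Respiratory complex I is described here through its nuclear genes, taken as every gene in the counts whose symbol has the form Ndufa, Ndufb, Ndufc, Ndufs, Ndufv, Ndufab or Ndufaf followed by a number. The rule found 46 of 25556 genes, of which 38 encode subunits and 8 encode assembly factors. Brainstem nuclei were profiled by single-nuclei RNA sequencing (snRNA-seq) from 1 wildtype mouse library (WT) and 1 library of a littermate with Dravet Syndrome (HET), both female and at postnatal day 41. HETs carry Scn1aA1783V/WT, a heterozygous missense knock-in of the sodium channel gene, obtained by crossing a male with the floxed Scn1a allele to a Sox2-Cre female, a driver that recombines across the embryo. The WT animal had intact Scn1a, both animals were on the C57Bl6 background (C57BL/6J in the study's methods), and neither was treated. With 1 library per genotype no difference can be tested against animals, and genotype, animal and library preparation cannot be told apart. Counts per gene do not show a missense change, so the genotype could not be checked from the files.

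Complex I oxidizes NADH in the mitochondrial inner membrane, passes the electrons to ubiquinone and pumps protons. Its peripheral arm reaches into the matrix and holds the flavin and the iron-sulfur clusters, while its membrane arm pumps. The core subunits do the catalysis, and the other subunits stabilize the structure. Assembly factors bind intermediates, modify single residues and leave before the enzyme is complete. Neurons depend on this chain for the ATP that restores ion gradients after firing, and loss of complex I subunits such as Ndufs4 damages the brainstem in mice. Of the core subunits, 7 are encoded in the nucleus and are among the 46 genes. The rest lie on the mitochondrial genome, whose genes had been removed from the counts.

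Nearly all of the genes differed between the libraries in 1 direction, as given after the sequences, so the bases around their transcription start sites were searched for shared motifs. RefSeq windows (GRCm38.p6, 250 bases before to 50 bases after the start) existed for 40 of the 46 genes. Short words were searched on both strands, each a core of the motif of a factor known to bind promoters of respiratory chain genes. The YY1 core AAGATGGC was held by 8 of the 40 genes (20%), against 3.19% of 27025 genes with a window and 4.54% of the 13036 of those that had at least 100 UMIs here. The 8 stretches are shown with the match in capitals, in the direction of transcription.

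Ndufa3 (chr7:3617384-3617413, plus strand): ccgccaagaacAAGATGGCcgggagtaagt
Ndufa9 (chr6:126849097-126849126, minus strand): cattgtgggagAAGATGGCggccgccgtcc
Ndufaf8 (chr11:120098933-120098962, plus strand): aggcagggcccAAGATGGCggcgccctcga
Ndufb8 (chr19:44555393-44555422, minus strand): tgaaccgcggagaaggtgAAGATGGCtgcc
Ndufc1 (chr3:51408915-51408944, minus strand): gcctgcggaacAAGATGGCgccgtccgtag
Ndufs4 (chr13:114388045-114388074, minus strand): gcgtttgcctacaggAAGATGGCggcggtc
Ndufs6 (chr13:73328433-73328462, minus strand): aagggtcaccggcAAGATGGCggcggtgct
Ndufs7 (chr10:80249462-80249491, plus strand): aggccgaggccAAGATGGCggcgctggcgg

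All 8 matches lay after the start site, between base 11 (Ndufaf8) and base 39 (Ndufb8), and all read in the direction of the gene. In 7 of the 8 the ATG inside the match is an annotated start codon, with Ndufaf8 the exception. The NRF1 core CGCATGCG, which reads the same on both strands, was held by 4 of the 40 genes (10%), against 2.07% of all genes and 3.63% of those with at least 100 UMIs.

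Ndufa8 (chr2:36049329-36049358, minus strand): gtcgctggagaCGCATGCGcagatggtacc
Ndufa11 (chr17:56717692-56717721, plus strand): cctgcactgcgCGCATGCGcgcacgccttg
Ndufaf4 (chr4:24897960-24897989, plus strand): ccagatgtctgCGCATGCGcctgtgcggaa
Ndufaf5 (chr2:140170652-140170681, plus strand): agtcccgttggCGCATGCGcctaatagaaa

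The ETS core CCGGAAG was held by 6 of the 40 genes (15%), against 9.93% of all genes and 16.8% of those with at least 100 UMIs. These are matches of letters and do not show binding. The words did not sort the genes by their ratio between libraries. The median log2 ratio was −0.57 for the genes with the YY1 core and −0.62 for those without, and the NRF1 group held both Ndufa11 at −0.82 and Ndufaf5 at 0.39.

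The WT library held 9259 nuclei with a median of 5456 UMIs and the HET library 9022 nuclei with a median of 5646 UMIs. Only 23 cell barcodes occurred in both libraries. Levels are given as CPM, the UMIs of a gene in a library or cluster per 1000000 UMIs there. The ratio between libraries is the log2 of HET CPM over WT CPM, with an exact interval at 95% for the split of the UMIs, which covers counting error only. A gene was called lower or higher when its ratio passed 1.5-fold and it had at least 100 UMIs over both libraries. All 46 genes had that many.

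Complex I transcripts were scarcer in the HET library. The 46 genes together gave 154290 UMIs in WT and 99775 in HET, or 16.7 and 11.1 UMIs per nucleus. The summed level was 2195 CPM in WT against 1508 in HET, and its log2 ratio was −0.54 (−0.55 to −0.53). In single genes, 44 of 46 had a lower CPM in HET, where 60.9% of all 18153 genes did. Intervals lay below 0 for 43 of the 46, and for 8232 of all 18153 genes. Past 1.5-fold, 27 of the 46 (58.7%) were lower, where 13.6% of all 18153 genes were. None of the 46 was higher past 1.5-fold, where 7.46% of all genes were. The median log2 ratio was −0.61 for the 46 genes and −0.10 for all genes.

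Beside these ratios the libraries differed in other measures. The median nucleus had 0.696% of its UMIs in ribosomal protein genes in WT and 0.407% in HET, and 0.343% and 0.458% in mitochondrial genes. Genes with a span under 10 kb took 19.4% of UMIs in WT and 17.1% in HET. When nuclei of both libraries were sorted together into 3 equal classes of ribosomal protein share, the median log2 ratio of the 46 genes from the lowest to the highest class was −0.23, −0.21 and −0.41, and 40, 41 and 43 of the 46 genes were lower in HET. The corresponding medians of all genes were 0.0032, −0.067 and −0.15. Those of all genes under 10 kb were −0.067, −0.12 and −0.28. The ratio of the 46 genes was thus nearer to 0 among nuclei of like ribosomal protein share than over all nuclei. In 3 such classes of mitochondrial share it was −0.57, −0.75 and −0.94. There the medians were −0.12, −0.12 and −0.17 for all genes and −0.31, −0.37 and −0.48 for all genes under 10 kb. The part of these measures in the complex I difference was not tested.

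**Figure D1:**
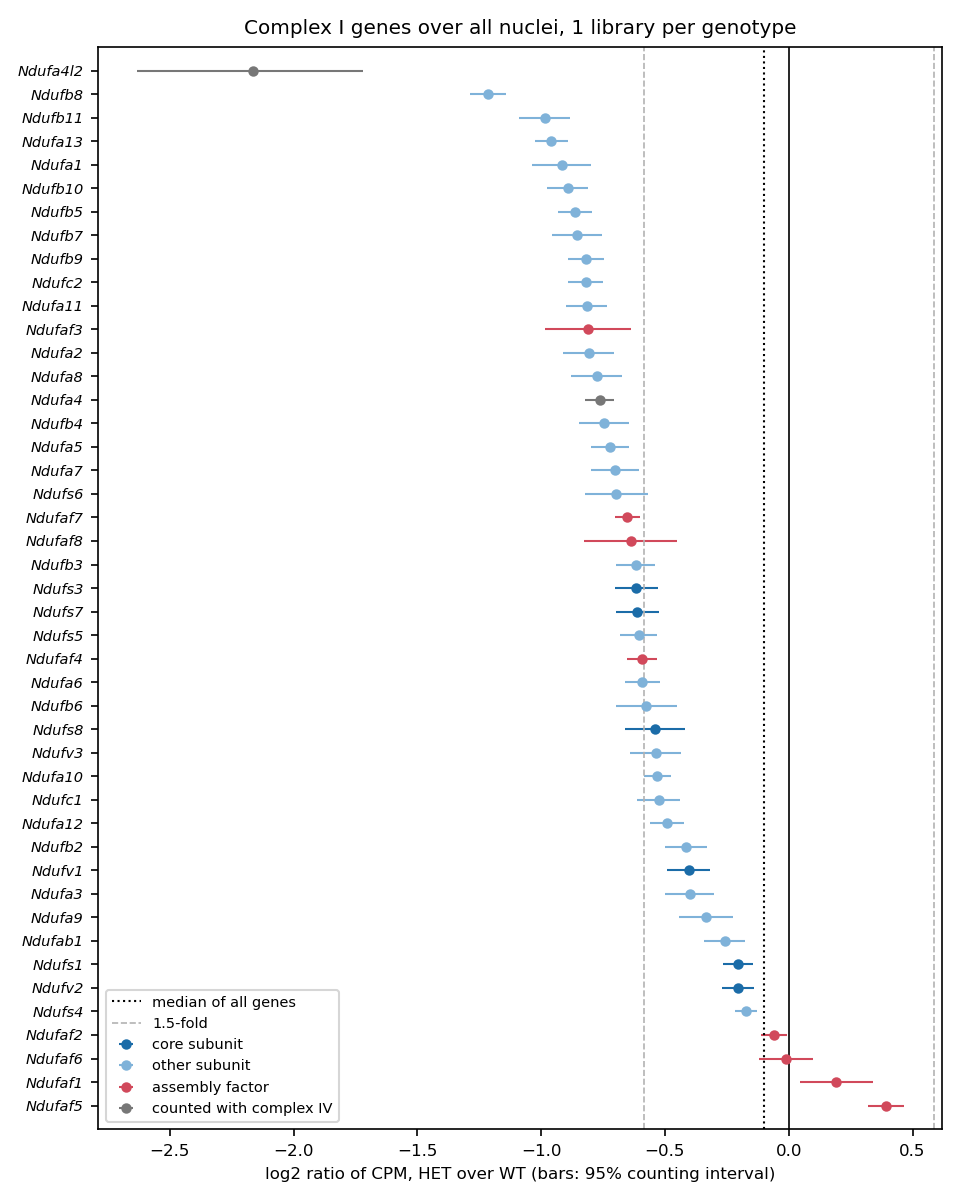
Each point is the log2 ratio of CPM in HET over WT for 1 of 45 complex I genes over all nuclei, with bars for the 95% counting interval. Colours mark core subunits, other subunits, assembly factors and the 2 genes counted with complex IV; dashed lines mark 1.5-fold and the dotted line the median of all genes at −0.10. Only Ndufaf1 and Ndufaf5 lie above 0, and Ndufa4l2 and Ndufb8 lie farthest below.

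All 38 subunit genes had a lower CPM in HET, with a median log2 ratio of −0.62, and 23 passed 1.5-fold. The values differed across the enzyme. The 7 core subunits had a median of −0.40 and 2 of 7 past 1.5-fold, while 28 other subunits had a median of −0.71 and 19 of 28. The latter leave out Ndufa4 and Ndufa4l2, described below with complex IV, and Ndufab1, the acyl carrier protein found in both arms, which had 38.6 CPM in WT and 32.2 in HET (log2 −0.26). Among the 19 membrane arm genes 14 were past 1.5-fold with a median of −0.82, and among the 16 peripheral arm genes 7 were, with a median of −0.54. The order of the arms was the same within short genes under 10 kb, where the medians were −0.82 for 15 membrane arm genes and −0.61 for 7 peripheral arm genes. All 7 core subunits lie in the peripheral arm, so the contrasts by arm and by core status share genes. Of the short peripheral arm genes 3 are core subunits, with a median of −0.54. The others were Ndufa2 at −0.81, Ndufa5 at −0.72, Ndufs6 at −0.70 and Ndufa6 at −0.59.

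Ndufb8, a membrane arm subunit that is lost when complex I fails to assemble, lies at chr19:44548572-44555440 on the minus strand (GRCm38). It had 5392 UMIs in WT and 2185 in HET, or 76.7 and 33.0 CPM, a log2 ratio of −1.22 (−1.29 to −1.14). At least 1 UMI was found in 40.2% of WT and 20.7% of HET nuclei. Ndufb8 shares its strand with the overlapping gene model Gm20538, so reads of the pair may have been split or dropped.

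The next subunits in order were also membrane arm genes. Ndufb11 had 34.6 CPM in WT and 17.5 in HET, a log2 ratio of −0.99. Ndufa13, also known as the cell death regulator GRIM-19, had 77.1 and 39.7 CPM, a log2 ratio of −0.96. Ndufa1, a small subunit of the same arm, had 25.2 and 13.3 CPM, a log2 ratio of −0.92. Their intervals overlap, so the order among these 3 genes is not resolved by the counts. The interval of Ndufb8 lies below all of theirs.

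The core subunits take part in electron transfer, and all 7 intervals lay below 0. The N module oxidizes NADH. Its flavin-binding subunit Ndufv1 had 36.9 CPM in WT and 27.9 in HET (log2 −0.40). Its iron-sulfur partner Ndufv2 had 61.2 and 53.2 CPM (log2 −0.20). Ndufs1, the largest subunit of the peripheral arm, had 73.3 and 63.6 CPM (log2 −0.20). None of the 3 passed 1.5-fold.

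The Q module hands the electrons to ubiquinone. Ndufs3 had 39.5 CPM in WT and 25.8 in HET (log2 −0.62). Ndufs7, which holds the last iron-sulfur cluster, had 39.2 and 25.7 CPM (log2 −0.61). Ndufs3 and Ndufs7 were thus the core genes past 1.5-fold. Ndufs8, another iron-sulfur subunit, had 20.2 and 13.9 CPM (log2 −0.54).

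At the other end of the subunits, Ndufs4 had the ratio nearest to 0. This subunit supports the N module and its gene lies at chr13:114287795-114388258 on the minus strand. It had 9226 UMIs in WT and 7712 in HET, or 131 and 117 CPM, a log2 ratio of −0.17 (−0.22 to −0.13).

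Ndufa4 and Ndufa4l2 carry complex I names but their proteins are counted with complex IV. Ndufa4 had 99.2 CPM in WT and 58.4 in HET, a log2 ratio of −0.76. Ndufa4l2, a hypoxia-inducible relative used as a pericyte marker, had 238 UMIs in WT and 50 in HET, or 3.39 and 0.756 CPM, a log2 ratio of −2.16 (−2.63 to −1.72). It was the lowest ratio of the 46 genes on the fewest UMIs.

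The assembly factors lay on both sides of 0. Their median log2 ratio was −0.33, with 4 of 8 past 1.5-fold in the lower direction. Ndufaf3, which with Ndufaf4 guides the Q module, had 11.2 CPM in WT and 6.41 in HET (log2 −0.81, −0.98 to −0.64). Ndufaf4 had 81.8 and 54.3 CPM (log2 −0.59, −0.65 to −0.53). Ndufaf7, a protein arginine methyltransferase, had 119 and 76.0 CPM (log2 −0.65, −0.70 to −0.60). Ndufaf8, the small partner of Ndufaf5, had 8.89 and 5.71 CPM (log2 −0.64, −0.83 to −0.45).

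The other 4 assembly factors had ratios near 0 or above it. Ndufaf5, which hydroxylates an arginine of Ndufs7, had 2863 UMIs in WT and 3538 in HET, or 40.7 and 53.5 CPM, a log2 ratio of 0.39 (0.32 to 0.46). Ndufaf1, which acts on the membrane arm, had 10.4 and 11.8 CPM, a log2 ratio of 0.19 (0.045 to 0.34). These were the only complex I genes whose intervals lay above 0, and neither reached 1.5-fold. Ndufaf6, an early Q module factor, had 20.01 and 19.87 CPM (log2 −0.01, −0.12 to 0.099). Ndufaf2, the paralog of Ndufa12 that holds its place until the N module docks, had 87.6 and 84.1 CPM (log2 −0.06, −0.11 to −0.0070). Set against the all-gene median, the ratios of Ndufaf6 and Ndufaf2 would lie above 0, at 0.09 and 0.04, while all 38 subunits would remain below. Shifted the same way, the intervals of both these genes would take in 0. Against the median of genes of like span (bins described below), Ndufaf6 lay at 0.14 and Ndufaf2 at −0.16. Ndufaf5 and its partner Ndufaf8 had ratios on opposite sides of 0. Together the assembly factors made up 17.3% (17.1 to 17.5) of complex I UMIs in WT and 20.7% (20.4 to 20.9) in HET.

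Gene length went along with these ratios. The span from the first to the last annotated base, introns included, was used for 46 of 46 genes (GENCODE vM21). It ran from 1.78 kb in Ndufaf8 to 156 kb in Ndufaf2. Of the 28 short genes, under 10 kb, 22 were past 1.5-fold lower (78.6%), where 30% of all short genes were. Of the 13 genes of 10 to 30 kb, 5 were past it (38.5%), where 12% of all such genes were. Of the 5 genes of at least 30 kb, 0 were past it, where 4.62% of all such genes were. The median log2 ratio of the complex I genes was −0.73, −0.49 and −0.17 in the 3 classes, and that of all genes was −0.34, −0.17 and 0.01. Across genes, Spearman's rho between the ratio and the span was 0.59 over the 46 genes and 0.33 over 17831 genes with at least 100 UMIs. It is a description, since genes of 1 pair of libraries are not independent.

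Within a length the subunits still lay low. All genes with at least 100 UMIs were divided by span into 20 bins, and each complex I gene was set beside the median of its bin. All 38 subunits were below that median, and 25 of 38 below the lower quartile of the bin. Of the 8 assembly factors, 5 were below the median and 3 below the lower quartile. The median distance from the bin was −0.37 on the log2 scale for subunits and −0.14 for assembly factors. Of the 7 core subunits, 2 were below the lower quartile.

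The 5 longest genes held members of both kinds. Ndufaf2 and Ndufs4, at 156 and 100.5 kb, had the values given above. Ndufa10, a membrane arm subunit of 34.9 kb, had 95.6 CPM in WT and 66.2 in HET (log2 −0.53, −0.59 to −0.48). Ndufs1 spans 33.2 kb and Ndufaf5 33.0 kb, so that these 3 genes of similar length had log2 ratios of −0.53, −0.20 and 0.39 with intervals that do not overlap. Ndufaf1 is the exception among the short genes, with a span of 7.38 kb and a ratio above 0. The 4 short assembly factors had a median of −0.61 and the 24 short subunits one of −0.76.

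**Figure D2:**
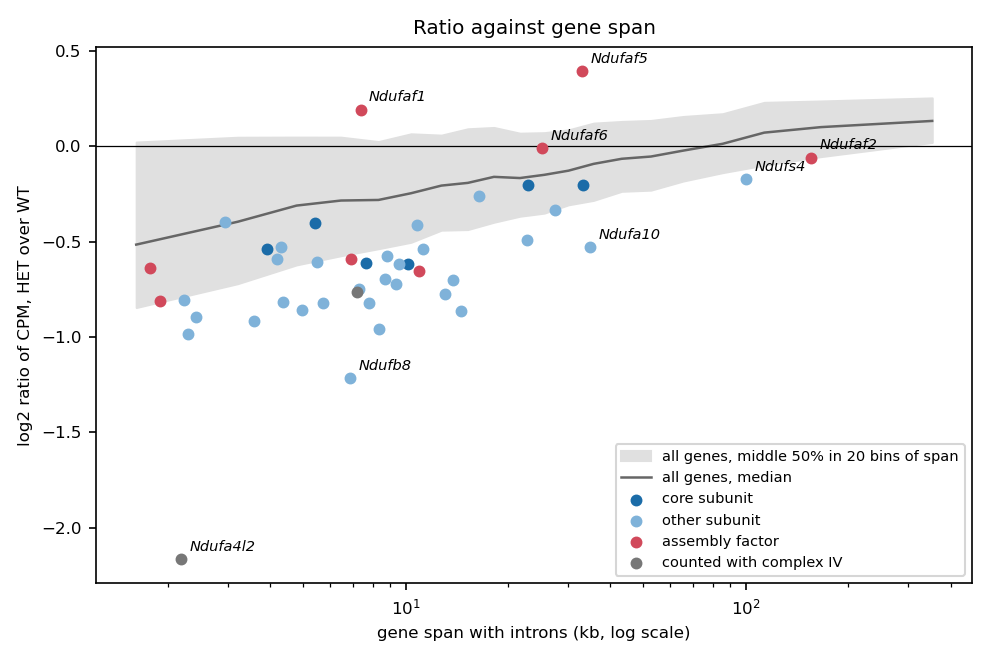
The log2 ratio of CPM in HET over WT is plotted against gene span in kb on a log scale, with 1 point for each of 45 complex I genes; the line and the grey band give the median and the middle 50% of all genes in 20 bins of span. The subunits lie on or below the line at every span, while Ndufaf1 and Ndufaf5 lie above the band.

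Levels of different genes are given per kb of span, a scale that fits counts that include introns, and whether these do is not given in the sources used here. Ndufb10 was first in both libraries, with 20.8 CPM per kb in WT and 11.2 in HET. Ndufaf2 had the lowest in WT with 0.562 CPM per kb, and Ndufa4l2 the lowest in HET with 0.345. Ndufb8 ranked 7 of 46 in WT with 11.2 CPM per kb and 14 of 46 in HET with 4.81. The ranks depend on this scale. By CPM with no division by length, Ndufs4 ranked 1 of 46 in both libraries. On that scale Ndufaf2 ranked 5 in WT and 2 in HET, and Ndufb10 ranked 18 and 24. Per kb of transcript, introns left out, Ndufaf2 ranked 21 of 46 in WT with 36.5 CPM per kb and 10 of 46 in HET with 35.0, Ndufb8 ranked 24 and 33, Ndufb10 ranked 8 and 12, and Ndufa4l2 was the lowest in both libraries.

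The deposited clusters showed which cells carried complex I transcripts. The markers of astrocytes (Slc1a2, Aqp4, Gja1), oligodendrocytes (Mog, Mag, Mbp), microglia (Cx3cr1, Csf1r, P2ry12), endothelial cells (Flt1, Cldn5, Pecam1), fibroblasts (Dcn, Col1a2, Col1a1) and ependymal cells (Foxj1, Ccdc153, Tmem212) were each highest in the cluster of that name in both libraries among the 12 compared clusters, those of 16 with at least 30 nuclei in each library. In epend.2, not compared, Cx3cr1 in WT and Foxj1 in HET were higher, at 262 and 82.9 CPM. Among the compared clusters the pericyte markers Pdgfrb, Rgs5 and Kcnj8 were also highest in the endo cluster, and the serotonergic markers Tph2, Slc6a4 and Fev in neuron.7. The choroid plexus markers Ttr, Folr1 and Kl peaked in endo, epend.1 and fibro. The deposited reference labels differed from some cluster names, with 108 of 405 nuclei of micro and 40 of 266 of fibro labelled as that type. In micro 211 nuclei were labelled as neurons.

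The endo cluster had the highest share of complex I transcripts among the compared clusters. The 46 genes together reached 5952 CPM (5769 to 6138) in endo in WT and 2977 CPM (2793 to 3170) in HET. In WT astro followed at 2985 CPM, oligo had 2707, neuron.1, the largest neuronal cluster, 2082 and neuron.7, where the serotonergic markers peaked, 1533. The intervals of astro, neuron.5, epend.1 and fibro overlapped in WT, so their order is not resolved. In HET the same clusters had 1871 CPM in astro, 1679 in oligo, 1457 in neuron.1 and 1283 in neuron.7. Neuron.5 had 2938 CPM in WT and 1871 in HET, above micro in both libraries. It was above oligo in HET, while in WT the intervals of neuron.5 (2676 to 3218) and oligo (2665 to 2750) overlapped. Glial and neuronal clusters were thus not separated by level. The other neuronal clusters compared lay between 1533 and 2082 CPM in WT, below micro at 2347, and between 1283 and 1489 in HET, where the highest, neuron.3, and epend.1 at 1536 had intervals that overlap. Endo was the cluster with the highest CPM in both libraries for 31 of 38 subunits and for 0 of 8 assembly factors. In WT it was highest for 3 of the 8 assembly factors, and in HET for 0. Genes under 10 kb took 33.4% of the UMIs of endo in WT and 26.3% in HET, the highest shares among the compared clusters. In neuron.1 they took 17.9% and 15.1%. The share of all genes that peak in endo was not computed. Ndufaf2 was highest in epend.1 and Ndufa10 in neuron.4 in both libraries. Counts per nucleus ordered the clusters differently, since neurons gave more UMIs. In WT there were 19.98 complex I UMIs per nucleus in neuron.1, 18.1 in endo and 8.95 in oligo.

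The endo cluster also stood apart in other measures. Its makeup by reference label differed between the libraries, with 161 of 222 nuclei labelled endothelial in WT and 48 of 122 in HET, and 33 and 54 labelled as neurons. The endothelial markers, with 3 of 3 detected, summed to 5290 CPM in WT and 3781 in HET, and Cldn5 had 2132 and 1064. In the nuclei labelled endothelial the complex I genes had 6668 CPM in WT and 3595 in HET. The part of the cluster's makeup in its complex I difference was not tested. The median nucleus of the whole endo cluster had 1.62% of UMIs in mitochondrial and 2.17% in ribosomal protein genes in WT. In HET these shares were 1.29% and 0.889%. Cluster neuron.9, with 35 WT and 2 HET nuclei and not compared, was more extreme at 22328 CPM of complex I genes, 6.64% mitochondrial and 11.1% ribosomal protein UMIs in WT.

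**Figure D3:**
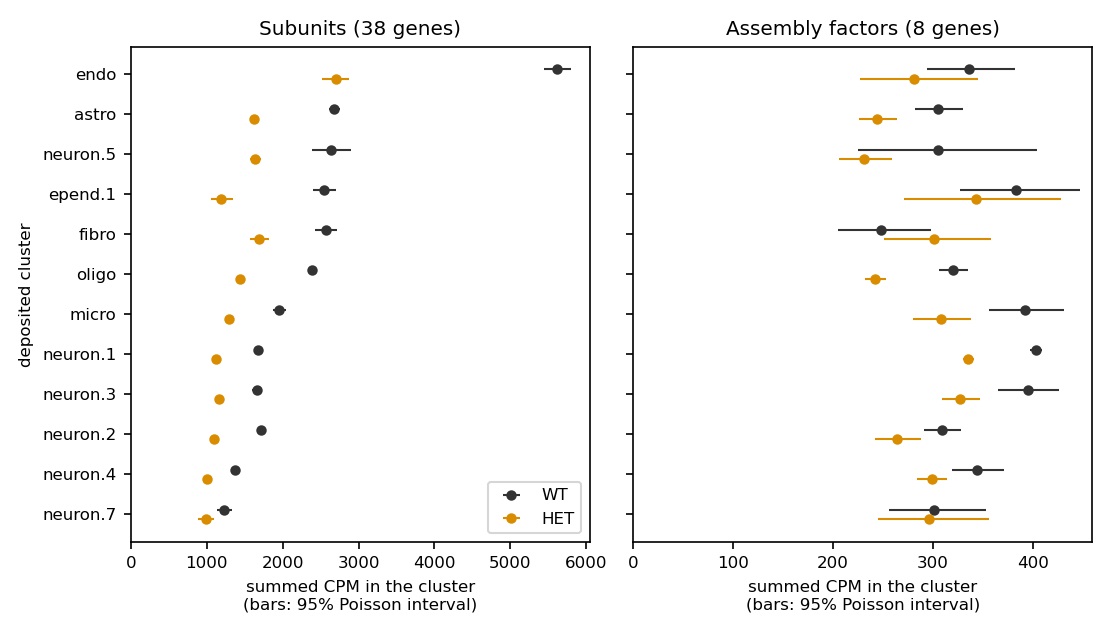
The summed CPM of the 38 subunit genes and of the 8 assembly factor genes is shown in each of the 12 compared clusters, for WT and HET, with bars for the exact 95% Poisson interval. The subunits' HET point is left of the WT point in 12 of 12 clusters, whereas the assembly factors lie between 231 and 403 CPM throughout and are higher in HET in fibro.

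The subunits were lower in HET in all 12 clusters. Their summed CPM had log2 ratios between −1.09 in epend.1 and −0.32 in neuron.7, and the Poisson intervals of the libraries did not overlap in any of the 12. Summed markers of cells that line the ventricles were also lower in HET in every cluster. The choroid plexus markers summed to between 123 and 749 CPM in WT and between 15.5 and 128 in HET, lower in 12 of 12 clusters. Most of this was Ttr, the thyroxine carrier made by choroid plexus. It had 635 CPM in WT and 71.5 in HET in astro, 713 and 88.4 in oligo, and 231 and 28.5 in neuron.1. Folr1 was lower in 8 of 12 clusters and Kl in 7, and both were at 0 in some clusters. The summed ependymal markers were lower in 12 of 12 clusters as well, from 6.42 to 1223 CPM in WT and from 0 to 810 in HET. Among them Foxj1 was higher in HET in some clusters, as in oligo at 5.82 CPM in WT and 6.72 in HET. Other lists moved differently. Endothelial and pericyte markers were lower in 10 of 12 clusters and fibroblast markers in 8. Serotonergic markers were lower in 5, oligodendrocyte markers in 3, neuronal markers in 2, microglial markers in 1 and astrocyte markers in 0. The part of RNA from ventricle-lining cells in the complex I difference was not tested. The summed assembly factors were lower in 11 of 12 clusters, with ratios between −0.40 in oligo and 0.28 in fibro, and the intervals did not overlap in 7. The share of complex I UMIs in assembly factors was higher in HET in 12 of 12 clusters. It was 5.64% in WT and 9.45% in HET in endo, and 19.4% and 23.0% in neuron.1.

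Over single genes the same held in the clusters with the most counts. In neuron.1, 26 of the 45 complex I genes with at least 100 UMIs there were past 1.5-fold lower, where 12.3% of all genes were. In oligo 25 of 44 were, where 12.8% of all genes were. In astro 31 of 41 were, where 13.2% of all genes were. Among genes under 10 kb, 21 of 27 complex I genes were past 1.5-fold lower in neuron.1, where 1210 of all 4123 were. The counts were 19 of 27 against 677 of 1937 in oligo, and 23 of 24 against 418 of 865 in astro. The median ratio of complex I genes of any length was −0.60 in neuron.1, −0.72 in oligo and −0.73 in astro, with all genes at −0.09, −0.10 and −0.11. In the smaller clusters medians over genes with at least 20 UMIs ran from −1.17 in epend.1 and −1.005 in endo to −0.18 in neuron.7, whose counts leave the ratio of a typical gene uncertain by 1.17 either way. Whether the clusters differ from each other was not tested.

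Of 503 pairs of gene and cluster with at least 20 UMIs, 448 were lower in HET, 280 intervals lay below 0 and 8 above. These pooled counts were not made for all genes, whose counts are given here for neuron.1 and oligo. In neuron.1, 43 of 46 complex I genes were lower, and 42 intervals lay below 0 and 1 above. Of all 20477 genes with that many UMIs there, 11986 were lower, 7409 intervals lay below 0 and 4646 above. In oligo 43 of 45 were lower with 41 intervals below 0, where 8741 and 3726 of all 14867 genes were. A total of 23 complex I genes were lower in every cluster where they had 20 UMIs, a count not made for all genes. Ndufb8 was lower in 12 of 12 clusters and its interval was below 0 in all 12. It had 73.4 CPM in WT and 30.3 in HET in neuron.1 (log2 −1.28), 98.1 and 43.4 in oligo (log2 −1.18), and 99.3 and 51.1 in astro (log2 −0.96). Ndufb8 was thus lower in HET in neuronal and in glial clusters alike, and whether this is a difference of the whole libraries was not tested.

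Ndufaf5 took the opposite course in 10 of 11 clusters, with 7 intervals above 0. It had 46.4 CPM in WT and 60.8 in HET in neuron.1 (log2 0.39), and 39.0 and 60.9 in neuron.4 (log2 0.64). In micro it had 36.2 and 57.2 CPM (log2 0.66, 0.095 to 1.24). The neuronal markers in micro, with 3 of 3 detected, also summed to more in HET, 1636 CPM against 1221 in WT, and the oligodendrocyte markers to less, 1037 against 1432. Of the Ndufaf5 UMIs there, 34 of 40 in WT and 75 of 81 in HET came from nuclei labelled as neurons, and 2 and 3 from nuclei labelled as microglia. Of the 8 intervals above 0 among all pairs, 7 were those of Ndufaf5. In oligo the values were 19.2 and 21.6 CPM with an interval of −0.18 to 0.53, and neuron.5 was the cluster with a lower value, from 7 and 47 UMIs.

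The other interval above 0 was that of Ndufaf6 in neuron.2, where it had 17.2 CPM in WT and 25.7 in HET (log2 0.58, 0.012 to 1.13). In oligo Ndufaf6 had 9.24 and 5.58 CPM (log2 −0.73, −1.34 to −0.13). Over all nuclei its interval spanned 0, and in these clusters its values lay on opposite sides of 0.

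**Figure D4:**
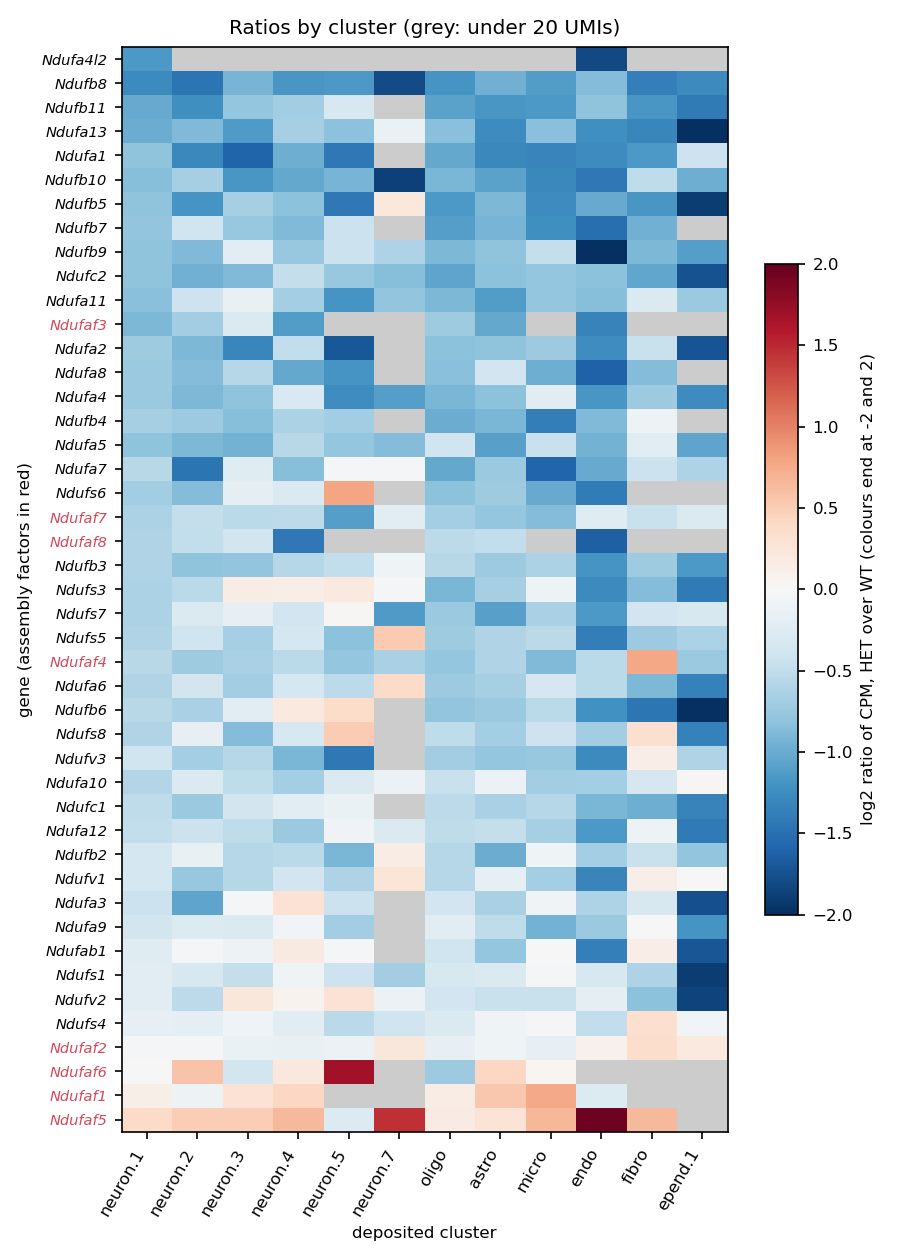
Rows are 45 complex I genes in the order of their ratio over all nuclei, columns the 12 compared clusters, and colours the log2 ratio of CPM in HET over WT (blue lower in HET, red higher), with grey for genes under 20 UMIs. Most fields of the subunit rows are blue, and the deepest reds are in the rows of Ndufaf5 and Ndufaf6.

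The genes with the most uneven levels across clusters all peaked in endo. Of the Ndufa4l2 UMIs, 174 of 238 in WT and 24 of 50 in HET came from endo. Its level there was 257 CPM in WT and 73.4 in HET (log2 −1.81, −2.49 to −1.19). It was seen in 59 of 222 WT endo nuclei (26.6%) and 14 of 122 HET endo nuclei (11.5%), and in 0.719% of WT and 0.315% of HET neuronal nuclei, which had more UMIs at a median of 7729 and 8390 against 2301 and 2009 in endo. All 59 and all 14 of these endo nuclei also had a UMI of a pericyte marker, compared with 78 of 163 and 44 of 108 endo nuclei without Ndufa4l2. An endothelial marker was also found in 48 of the 59 and 9 of the 14, compared with 146 of 163 and 78 of 108. Endothelial markers summed to 6140 CPM in the WT nuclei with Ndufa4l2 and 4750 in those without, and 44 of the 59 were labelled endothelial. Nuclei with Ndufa4l2 had more UMIs, with medians of 3205 against 2201 in WT and 2503 against 1942 in HET. Summed over the 3 of 3 pericyte markers detected, endo had 1917 CPM in WT and 1146 in HET. Rgs5 had 1317 and 648 CPM, Kcnj8 229 and 104, and Pdgfrb 371 and 394. Endothelial markers in the cluster were lower in HET as well, as given above. A smaller part of pericytes or other vascular cells in the HET cluster and less Ndufa4l2 per cell cannot be told apart.

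Ndufa7, a peripheral arm subunit, had 252 CPM in WT and 125 in HET in endo, at least 5.02 times its median over clusters in each library. Ndufb11 had 160 and 91.7 CPM there, Ndufb4 135 and 73.4, and Ndufa2 166 and 70.3, each at least 3.42 times its median. All of these were also lower in HET over all nuclei, at −0.70 for Ndufa7, −0.75 for Ndufb4 and −0.81 for Ndufa2.

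The rest of the respiratory chain showed a like picture. Complex I genes outside the naming rule and the other complexes were taken from lists. Ndufb1-ps, a further Nduf gene in the counts, had 53.8 CPM in WT and 42.2 in HET (log2 −0.35). Of 41 nuclear genes of complexes III, IV and ATP synthase with at least 100 UMIs, 28 were past 1.5-fold lower and 0 higher, with a median log2 ratio of −0.67. In complex III 6 of 9 were, led by Uqcrq at 62.6 CPM in WT and 30.7 in HET (log2 −1.03). In complex IV 12 of 15 were. Cox4i2, the isoform of subunit 4 expressed in lung, had the lowest estimate there, at 1.55 and 0.620 CPM from 109 and 41 UMIs (log2 −1.32, −1.88 to −0.79), an interval that takes in the ratio of Cox6a1, another subunit of the complex, at −0.92. In ATP synthase 10 of 17 were, with Atp5e, whose interval overlaps that of the next gene, at 33.8 and 19.7 CPM (log2 −0.78). The genes past 1.5-fold had log2 ratios from −1.03 to −0.65 in complex III, −1.32 to −0.60 in complex IV and −0.78 to −0.59 in ATP synthase.

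Complex II, which feeds electrons from succinate and pumps no protons, had 0 of 4 genes past 1.5-fold and a median of −0.23. Sdhb had 46.1 CPM in WT and 31.1 in HET (log2 −0.57), and Sdhd 12.6 and 13.4 (log2 0.09). Complex I assembly factors with other names had 5 of 11 genes past 1.5-fold lower and a median of −0.42, against −0.33 for the Ndufaf genes. Dmac1 had 8.62 and 4.28 CPM (log2 −1.01), Tmem186 36.1 and 21.1 (log2 −0.78), and Timmdc1 93.3 and 56.6 (log2 −0.72). Tmem126a had 115 and 71.1 CPM (log2 −0.69), and Tmem70 20.95 and 13.6 (log2 −0.62). Nubpl, the iron-sulfur cluster carrier of complex I and at 215 kb the longest of these genes, had 17.1 and 19.3 CPM (log2 0.17, 0.059 to 0.29).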

How the data were processed

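The deposited table holds UMI counts per gene and nucleus, which the authors made from 10x Genomics 3' v3.1 libraries with Cell Ranger on its default mm10 reference. Its version, and whether reads in introns were counted, are not given in the sources used here. In Seurat 4.1 the authors removed nuclei with few genes or many mitochondrial reads, and dropped mitochondrial and hemoglobin genes and some other genes. Clusters, reference labels, the percent of UMIs in mitochondrial and ribosomal protein genes and a doublet score per nucleus were used as the authors deposited them; all 18281 nuclei are classed as singlets there.

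UMIs were summed per library, and per cluster and library, with no further filter on nuclei, and divided by all UMIs there (CPM). Ratios of CPM had exact binomial (Clopper-Pearson) intervals, summed levels exact Poisson intervals and shares exact binomial ones, all at 95% and for counting error only, since 1 library per genotype gives no replicates and no test. Medians over genes used at least 100 UMIs over both libraries, or 20 in a cluster. Spans, strands and overlaps came from GENCODE vM21 (GRCm38), which gave a span for 24908 of 25556 genes, and start site windows from RefSeq (GRCm38.p6). Of the 46 genes, 6 overlap another gene on their own strand. The named genes were all assembly factors, the 5 highest and 5 lowest ratios among genes with at least 200 UMIs, the 5 longest, the 5 most uneven over clusters, the 7 core subunits, Ndufb8, Ndufa4 and Ndufa4l2, and other respiratory chain genes past 1.5-fold, of which those of complexes III and IV and ATP synthase are given as counts and ranges with 1 gene each. The values of 1 of the 46 genes are counted in the sums, counts and medians but not reported singly here. The 46 genes and all lists were chosen with earlier results of these data known. The ratio and interval functions were tested on simulated data. Alternatives covered depth, scaling, nuclei, minimum counts and length classes. The scripts ran under scipy 1.17.1, pandas 2.3.3, matplotlib 3.10.9 and numpy 2.4.6 with Python 3.11.15.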

Additional observations from a re-analysis of the deposited data

Results flagged for a closer look

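Ndufaf6 stood out because its ratios between the libraries had opposite signs in different cell types. Its log2 ratio, HET over WT, was 0.58 in neuron.2, from 62 and 51 UMIs in WT and HET, and −0.73 in oligo, from 54 and 44 UMIs. The counting intervals of both exclude 0, narrowly in neuron.2. The difference between the clusters was not tested, since each genotype has 1 library.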

How the results depend on the processing

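No paired analysis was possible because each genotype has 1 library. All 177 alternative medians were below 0, and the count of genes past 1.5-fold lay between 19 and 33 around the reported 27. Of 188 alternative values, 175 stayed within the reach of a typical single gene's interval, or within 1.5 times for the count. That reach is not the error of a median. At 1.08 in neuron.5, 1.17 in neuron.7 and 1.32 in epend.1 it exceeds the median itself, so staying within it says little there. Setting the ratios relative to the median of all genes, a shift of −0.10, gave medians of −0.51 for all 46 genes, −0.51 for subunits, −0.22 for assembly factors, −0.63 for short and −0.068 for long genes. With every nucleus at an expected 1000 UMIs they were −0.75 for all, −0.77 for subunits, −0.83 for short and −0.24 for long genes. The 5 long genes also came to −0.11 as a mean, −0.12 when long meant 50 kb or more and −0.54 when length was that of the transcript. Nuclei whose reference label matched the cluster, a choice made after seeing the data, gave −1.42 in fibro against −0.48 and −1.11 in micro against −0.67. Genes with at least 500 UMIs in the cluster gave −0.08 in neuron.3, −0.33 in neuron.2 and −0.45 in astro. In each of these 3 clusters most of the 45 genes in the reported median fall under that floor. These medians therefore rest on fewer genes and are not a like comparison. The causes of the other differences were not tested. Depth limits the clusters with few nuclei, where a typical gene's interval reaches 1.17 on either side in neuron.7 and 1.32 in epend.1, and Ndufa4l2 rests on 288 UMIs. Clusters, labels and mitochondrial shares are as deposited, the mitochondrially encoded subunits were not analysed here, and reads in introns may count toward long genes.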
